A study of Homo sapiens with 12 samples.

Results

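The genes of glycolysis and of the low-oxygen response were followed as a set of 41 genes among the 58735 gene identifiers counted in OCI-AML2, a human acute myeloid leukaemia cell line that carries a KMT2A rearrangement. The members were a named list matched to the count table by Ensembl identifier, and each of the 41 matched 1 row. They fall into 18 glycolytic enzymes, 6 regulators and transporters of glycolysis, 16 targets of the hypoxia-inducible factor (HIF) outside glycolysis, and HIF1A itself. After the filter on low counts, 40 of the 41 were tested. EGLN3, an oxygen-sensing prolyl hydroxylase, was left out with 0 to 8 counts in any library.

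Cells were infected with a lentivirus that carried a control guide against luciferase (sgLuc, labelled wild type) or 1 of 2 guides against UTX, the histone H3K27 demethylase encoded by KDM6A (sgUTX_2 or sgUTX_4, labelled as knockout). Each kind of cell then received DMSO or 1 µM SGC0946, an inhibitor of the histone H3K79 methyltransferase DOT1L, for a period of 6 days. That gave 6 groups of 2 RNA-seq libraries, 12 in all, from a single cell line. No label says that paired libraries stem from independent cultures, and the p-values therefore reflect variation between libraries that could be purely technical.

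Glycolysis turns glucose into pyruvate in the cytosol, and lactate dehydrogenase turns pyruvate into lactate when it is not passed on to the mitochondrion. When oxygen is low, the HIF alpha subunits escape hydroxylation and degradation, pair with ARNT and bind short DNA elements with the core RCGTG. Their targets include nearly every step of glycolysis, the glucose and lactate carriers, and genes of mitophagy, collagen hydroxylation and vessel growth. Leukaemia lines such as this one are kept as suspension cultures and typically use glycolysis heavily even with oxygen present.

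The targeted gene was read first. KDM6A stood at 32.0 and 27.9 CPM (counts scaled to the effective library size) in the sgLuc DMSO libraries, at 14.7 and 15.6 CPM with sgUTX_2 and at 49.5 and 46.2 CPM with sgUTX_4. With SGC0946 the sgLuc libraries held 35.1 and 34.5 CPM, the sgUTX_2 libraries 14.4 and 15.9 CPM and the sgUTX_4 libraries 43.2 and 48.9 CPM. In DMSO the transcript was therefore lower than control in the libraries labelled sgUTX_2 (log2 fold change -0.99, adjusted p = 3.56e-10) and higher in those labelled sgUTX_4 (log2 fold change 0.67, adjusted p = 1.94e-07). These counts do not show the protein, and for sgUTX_4 the transcript goes against a simple reading of the knockout label. "The sgUTX libraries" below means the libraries labelled sgUTX_2 or sgUTX_4, and counts and many values are given for each guide.

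Total counts lay between 15480493 and 23262141 per library. The 2 sgLuc DMSO libraries stood apart from the other 10: ribosomal protein genes took 17.8 and 19.0% of their counts, against 13.0 and 13.2% with sgLuc and SGC0946 and 11.1 to 12.2% in the sgUTX libraries. Their scaling factors were the lowest (0.854 and 0.888, up to 1.07 elsewhere). Every comparison in DMSO against sgLuc, the sgLuc response to SGC0946 and the difference of responses rest on these 2 libraries. The means compared for sgUTX against sgLuc with SGC0946 do not use them, but the estimate of the spread is shared by all 12 libraries. All 9 myeloid markers checked (CD33, SPI1, LYZ, MPO, CEBPA, CSF1R, ITGAM, FCER1G, TYROBP) were detected. Of 8 erythroid markers, 6 (the globin and glycophorin genes) were at 0 in all libraries, the adherent-cell markers summed to at most 12.6 CPM, and the lymphoid markers summed to 45.3 to 111 CPM, nearly all of it NCAM1.

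Before the levels, the sequence next to some of the members is shown, because the HIF core can be read in it. The 250 bases before the start were available for 37 members from RefSeq (GRCh38.p14). For HK3, PFKP, GAPDH, PFKFB3 and PPFIA4 the first 25 bases from that start were in no GENCODE 29 transcript of the gene, so their windows are less certain. They were searched on both strands for ACGTG and GCGTG, so that CACGT and CACGC also count as matches and the palindrome CACGTG counts as 2 overlapping matches. Of the 18 enzyme promoters 10 held a match (55.6%), as did 10 of 13 promoters of the HIF targets outside glycolysis (76.9%), 2 of 5 of the regulators and transporters (40.0%) and 23 of all 37 (62.2%). Over 27305 promoters of the same length the share was 43.1%. ACGTG alone was in 40.5% of the member promoters and in 18.7% of all, and CACGTG in 16.2% and 6.49%. A match is a description of the letters and not a binding site, and its absence says only that these letters are not in the window.

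For FAM162A, a mitochondrial HIF target, and PDK1, the kinase that inactivates pyruvate dehydrogenase, the full windows are printed 5′ to 3′ on the gene's strand, with matches in capitals. FAM162A had 4 matches and PDK1 had none.
FAM162A (chr3:122383932-122384181, plus strand): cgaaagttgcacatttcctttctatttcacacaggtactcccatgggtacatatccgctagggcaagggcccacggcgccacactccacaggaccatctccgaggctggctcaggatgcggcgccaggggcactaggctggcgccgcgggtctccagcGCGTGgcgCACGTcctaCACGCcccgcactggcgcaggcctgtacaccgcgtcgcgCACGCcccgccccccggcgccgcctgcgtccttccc
PDK1 (chr2:172555123-172555372, plus strand): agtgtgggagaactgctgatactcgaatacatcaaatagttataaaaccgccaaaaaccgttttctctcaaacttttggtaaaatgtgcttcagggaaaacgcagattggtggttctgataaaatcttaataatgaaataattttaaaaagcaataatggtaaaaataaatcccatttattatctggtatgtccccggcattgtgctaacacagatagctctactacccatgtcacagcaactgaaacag

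For 12 further members only 30 bases around the match nearest the start are printed, because the windows of all of these but PFKFB3 overlap exons of GENCODE 29 by 74 to 250 bases. They were chosen, from members with a match, as some of the isoform pairs compared below and as members with large differences. Capitals mark matches, and capitals at the very edge of a stretch belong to, or are the end of, a neighbouring match.
ALDOC (chr17:28576907-28576936, minus strand): CccccggaggagtCACGTagctctgcgaca
ALDOA (chr16:30064088-30064117, plus strand): cccttcccctccaCACGTcaacgattctat
ENO2 (chr12:6914449-6914478, plus strand): cacccgcgctcgtACGTGcgcctccgccgg
ENO1 (chr1:8878742-8878771, minus strand): cggagctgaggggGCGTGccccggaggcgg
PFKFB4 (chr3:48556953-48556982, minus strand): gtgagttgggcatGCGTGgtcggaggccgg
PFKFB3 (chr10:6144740-6144769, plus strand): gggcggcccggccCACGCcccggcttcccc
LDHA (chr11:18394477-18394506, plus strand): ACGTGggttcccgCACGTccgccggccccc
PGK1 (chrX:78104052-78104081, plus strand): caaacggaagccgCACGTctcactagtacc
ADM (chr11:10304959-10304988, plus strand): agagcaggagcgcGCGTGgctgaggaaaga
ANKRD37 (chr4:185396685-185396714, plus strand): ccagtgtttgtgtACGTGcggccgtggcgg
BNIP3 (chr10:131982011-131982040, minus strand): cCACGCccctgcgCACGCgcaggccccaag
P4HA1 (chr10:73096936-73096965, minus strand): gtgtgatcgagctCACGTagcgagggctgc

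Both members of the printed pairs ALDOC and ALDOA, ENO2 and ENO1, and PFKFB4 and PFKFB3 held a match, as the choice required. In the other families compared below, LDHB, HK1, HK3, PFKM and PFKP had no match. The 250 bases of ALDOC had 5 and those of ALDOA 1, ENO2 had 1 and ENO1 had 2, and PFKFB4 and PFKFB3 had 1 each. BNIP3 had 6, the most of any member, LDHA had 5, ANKRD37 and PGK1 had 3 each, and ADM and P4HA1 had 1 each. The count of matches did not order the members by their differences: ADM, with 1 match, had the largest, and LDHA, with 5, was 2.497-fold lower in sgUTX DMSO libraries.

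In DMSO, most of the pathway was lower in the sgUTX than in the sgLuc libraries, and the HIF targets outside glycolysis by more than the enzymes. Of the 40 members tested, 33 were lower and 1 (PFKFB3) was higher at an adjusted p under 0.05 (edgeR quasi-likelihood F-test, Benjamini-Hochberg over 15060 genes). Of all genes tested, 32.3% were lower and 28.7% higher in the same comparison. At least 2-fold lower were 20 members, against 13.5% of all genes. Of the 18 enzymes 14 were lower, 6 of them at least 2-fold, with a median log2 fold change of -0.91. Of the 15 measured HIF targets outside glycolysis 14 were lower, 12 of them at least 2-fold, with a median of -2.09. The median over all genes was -0.01.

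The 2 guides were also fitted apart. In the fit with a mean for each guide, 36 members were lower with sgUTX_2 and 36 with sgUTX_4, 34 of them with both. Of all genes, 32.2% were lower with sgUTX_2 and 31.2% with sgUTX_4. The share of all genes lower with both was not counted, and both comparisons use the same sgLuc libraries. LDHB and VEGFA were lower with sgUTX_2 only by this threshold, and PFKL and PFKP with sgUTX_4 only. The 2 guides, tested against each other in DMSO, differed for 7 members (3.49% of all genes). HK3, LDHB, PKM and SLC2A1 were higher with sgUTX_4, and PFKP, SLC16A3 and SLC2A3 were lower.

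**Figure D1:**
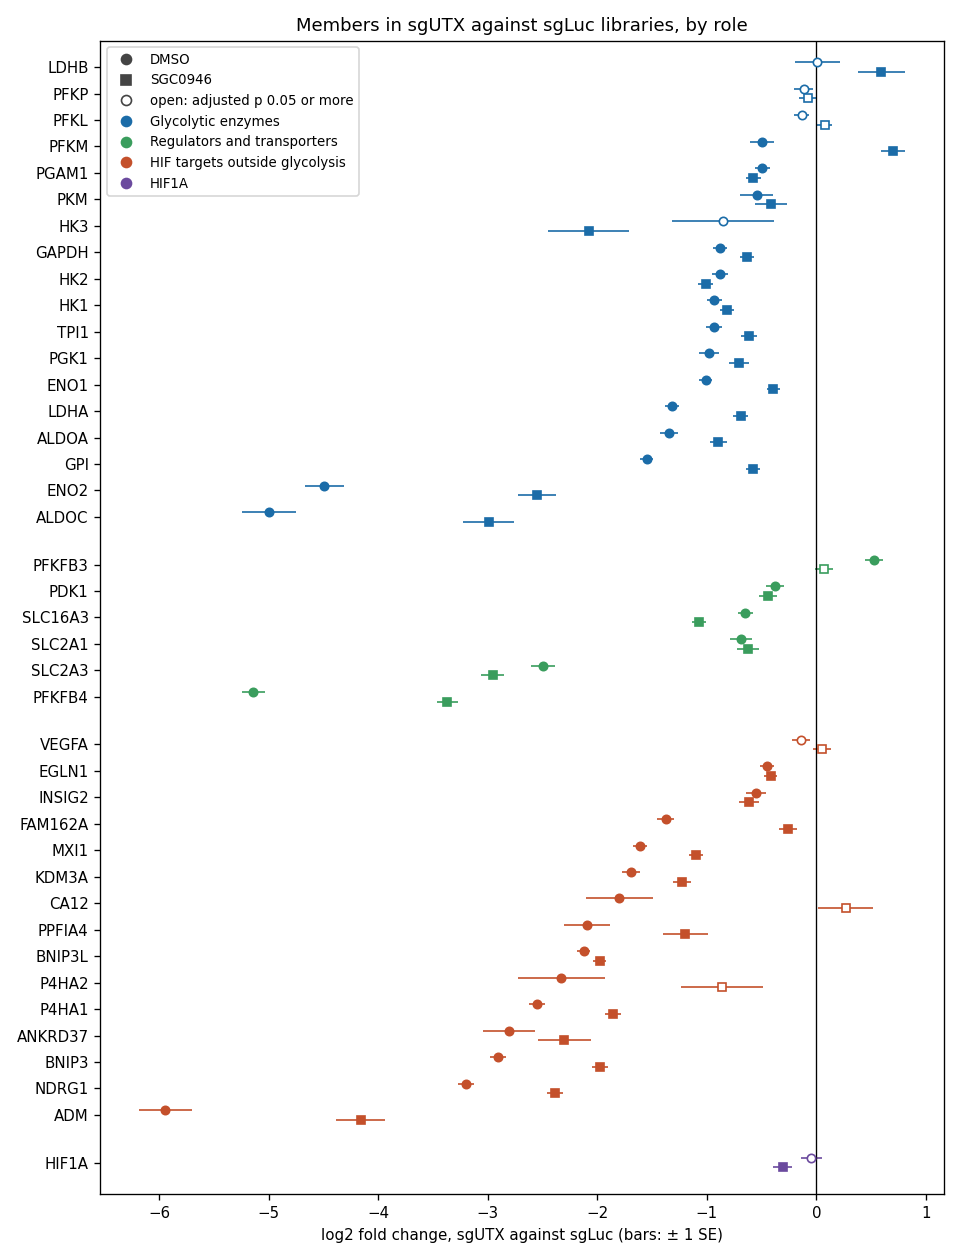
Log2 fold change of the 40 tested members in sgUTX against sgLuc libraries, grouped by role, in DMSO (circles) and with SGC0946 (squares). Bars are 1 SE and open symbols have an adjusted p of 0.05 or more. Most symbols lie left of 0, ADM, PFKFB4, ALDOC and ENO2 lie farthest left in DMSO, and for these 4 the square lies to the right of the circle.

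Per kilobase of exon, the most abundant enzyme in the sgLuc DMSO libraries was GAPDH, the dehydrogenase of the pathway's middle step, at 2049 CPM per kb. TPI1, ENO1, LDHA, PGAM1, PGK1 and PKM followed at 401, 367, 335, 309.6, 284 and 196 CPM per kb. This order depends on the length used, the union of all annotated exons (8571 bases for PKM, 2700 for TPI1). In CPM, not divided by length, PKM lay above TPI1, PGAM1 and PGK1. At the low end were HK3 at 5.59 and PFKM at 3.42 CPM per kb. Together the 18 enzymes took 1.499 and 1.56% of all counts in the sgLuc DMSO libraries, 0.945 to 1.00% in the sgUTX DMSO libraries, 1.44 and 1.49% with sgLuc and SGC0946, and 1.07 to 1.17% with sgUTX and SGC0946. The sgLuc and sgUTX ranges did not overlap in either treatment.

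Glucose enters the pathway through hexokinase. HK2, the inducible hexokinase, stood at 276 and 306 CPM in the sgLuc DMSO libraries and at 150.2 and 177 CPM with sgUTX_2 and 149 and 156 CPM with sgUTX_4. All 4 sgUTX libraries lay below both controls (log2 fold change -0.88 ± 0.07 SE, adjusted p = 3.43e-10). HK1, the widely expressed form, went from 105 and 108 CPM to 56.9 and 59.2 CPM with sgUTX_2 and 53.9 and 53.6 CPM with sgUTX_4 (log2 fold change -0.93 ± 0.07 SE, adjusted p = 3.64e-11). HK3, a hexokinase typical of myeloid cells, was at 19.3 and 17.5 CPM in the controls, 6.19 and 6.18 CPM with sgUTX_2 and 16.8 and 12.4 CPM with sgUTX_4. HK3 was not called over both guides (adjusted p = 0.147), and the guides differed (2.35-fold higher with sgUTX_4 than with sgUTX_2, adjusted p = 1.18e-07). In the fit by guide it was lower with each (log2 fold change -1.57 and -0.34, adjusted p = 1.47e-12 and 0.0129).

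GPI, which makes fructose 6-phosphate, had a wide gap for an abundant enzyme. It stood at 932 and 1014 CPM in the sgLuc DMSO libraries and at 329.9 and 344 CPM with sgUTX_2 and 320.1 and 335 CPM with sgUTX_4 (log2 fold change -1.55 ± 0.06 SE, adjusted p = 1.84e-15). The phosphofructokinases, which catalyse the committed step, had small gaps: PFKL was at 254 and 256 CPM and 238 and 255 CPM with sgUTX_2 and 205 and 232 CPM with sgUTX_4, and PFKP at 154 and 144 CPM and 144 and 155 CPM with sgUTX_2 and 127 and 124 CPM with sgUTX_4. The 2 groups overlapped for both, and neither was called over both guides (adjusted p = 0.101 and 0.249). PFKM, the muscle-type form, was lower at 20.5 and 17.8 CPM with sgUTX_2 and 16.8 and 15.6 CPM with sgUTX_4 against 23.02 and 27.0 CPM (log2 fold change -0.49 ± 0.11 SE, adjusted p = 0.000351). That call was lost with scaling by library size alone (adjusted p = 0.0681).

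The aldolases, which split the 6-carbon sugar, showed the widest gap of any enzyme. ALDOC stood at 359 and 386 CPM in the sgLuc DMSO libraries and at 11.1 and 12.8 CPM with sgUTX_2 and 15.5 and 7.29 CPM with sgUTX_4. No sgUTX library came near a control (31.9-fold lower, log2 fold change -4.99 ± 0.25 SE, adjusted p = 1.5e-07). ALDOA was at 49.6 and 55.3 CPM and 19.0 and 20.9 CPM with sgUTX_2 and 21.2 and 21.3 CPM with sgUTX_4 (log2 fold change -1.35 ± 0.08 SE, adjusted p = 2.13e-12). ALDOA shares 53.5% of its exonic bases with 2 clone-named genes, so its reads may have been split or lost in counting, and its low level beside ALDOC is uncertain.

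Between the aldolases and the enolases stand 4 abundant enzymes. TPI1 went from 1083 ± 16.2 CPM (SD, n = 2) to 565 ± 49.8 CPM (SD, n = 4), GAPDH from 6109 ± 533 CPM to 3322 ± 183 CPM, PGK1 from 1563 ± 21.8 CPM to 792 ± 99.9 CPM and PGAM1 from 795 ± 6.08 CPM to 564 ± 41.05 CPM. Each of these 4 was called lower, with log2 fold changes of -0.94, -0.88, -0.98 and -0.50, and each was called lower with either guide alone. With SGC0946 the same 4 had differences of -0.62, -0.63, -0.71 and -0.58 on the log2 scale. ENO1, the main enolase, stood at 1866 and 2003 CPM in the controls and at 928 and 978 CPM with sgUTX_2 and 999 and 933 CPM with sgUTX_4 (log2 fold change -1.01 ± 0.06 SE, adjusted p = 1.79e-12). ENO2, the enolase best known from neurons, stood at 30.2 and 34.3 CPM and at 1.47 and 1.67 CPM with sgUTX_2 and 1.54 and 0.972 CPM with sgUTX_4 (22.5-fold lower, log2 fold change -4.49 ± 0.18 SE, adjusted p = 1.86e-15). Behind the ENO2 values are 938 counts in the 2 control libraries and 114 in the 4 sgUTX libraries.

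At the end of the pathway, PKM, the pyruvate kinase, stood at 1657 and 1704 CPM in the sgLuc DMSO libraries and at 1006 and 988 CPM with sgUTX_2 and 1400 and 1213 CPM with sgUTX_4 (log2 fold change -0.55 ± 0.15 SE, adjusted p = 0.0087). Its gap was wider with sgUTX_2, and the call was lost without sgLuc DMSO replicate 2 (adjusted p = 0.058), without the filter on low counts (0.0592) and with scaling by library size alone (log2 fold change -0.27, adjusted p = 0.144). LDHA, which reduces pyruvate to lactate, fell from 1989 and 2171 CPM to 835 and 811 CPM with sgUTX_2 and 887 and 799.6 CPM with sgUTX_4 (log2 fold change -1.32 ± 0.06 SE, adjusted p = 7.36e-14). LDHB, which favours the reverse reaction, was at 47.7 and 37.1 CPM and 37.1 and 35.7 CPM with sgUTX_2 and 52.9 and 45.6 CPM with sgUTX_4, with overlapping groups and no call (adjusted p = 0.983). LDHB shares 33.4% of its exonic bases with a clone-named gene.

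Among the regulators and transporters, 5 of 6 were lower and 1 was higher. The paired kinases that set the level of fructose 2,6-bisphosphate, the activator of phosphofructokinase, went opposite ways in DMSO. PFKFB4 stood at 194 and 202 CPM in the sgLuc DMSO libraries and at 4.96 and 5.70 CPM with sgUTX_2 and 5.95 and 5.78 CPM with sgUTX_4 (35.3-fold lower, log2 fold change -5.14 ± 0.10 SE, adjusted p = 7.81e-19). PFKFB3 stood at 55.3 and 45.4 CPM and at 74.8 and 64.9 CPM with sgUTX_2 and 74.5 and 76.6 CPM with sgUTX_4, all 4 above both controls (log2 fold change 0.53 ± 0.08 SE, adjusted p = 1.01e-05). With SGC0946, where the sgLuc DMSO libraries do not enter the means compared, PFKFB4 was again lower and PFKFB3 was not called (log2 fold change 0.07 ± 0.08 SE, adjusted p = 0.476). SLC2A3, the high-affinity glucose carrier GLUT3, stood at 248 and 314 CPM and at 55.2 and 55.5 CPM with sgUTX_2 and 44.3 and 43.3 CPM with sgUTX_4 (5.65-fold lower, adjusted p = 1.03e-10). The glucose carrier SLC2A1, the lactate exporter SLC16A3 and PDK1 were lower by less, with log2 fold changes of -0.69, -0.65 and -0.38, each called with either guide alone. PDK1 lost its call with scaling by library size alone (log2 fold change -0.10, adjusted p = 0.283).

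Outside glycolysis, ADM, the gene of the vasodilator peptide adrenomedullin, had the largest difference of all members. It stood at 30.1 and 41.8 CPM in the sgLuc DMSO libraries and at 0.786 and 0.570 CPM with sgUTX_2 and 0.772 and 0.162 CPM with sgUTX_4. The 4 sgUTX libraries held 46 counts in all, against 1035 in the 2 controls (61.5-fold lower, log2 fold change -5.94 ± 0.24 SE, adjusted p = 1.89e-13). NDRG1, a stress-responsive gene often used as a marker of low oxygen, was the most abundant HIF target outside glycolysis per kilobase (139 CPM per kb). It went from 1278 and 1459 CPM to 154 and 152 CPM with sgUTX_2 and 151 and 138 CPM with sgUTX_4 (9.19-fold lower, log2 fold change -3.20 ± 0.07 SE, adjusted p = 4.5e-19). The 4 sgUTX values lay within a narrow range, far below both controls.

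The mitophagy receptors BNIP3 and BNIP3L were both lower. BNIP3 stood at 169 and 167 CPM in the controls and at 22.8 and 23.1 CPM with sgUTX_2 and 24.1 and 19.6 CPM with sgUTX_4 (log2 fold change -2.90 ± 0.07 SE, adjusted p = 1.3e-18). BNIP3L stood at 245 and 249 CPM and at 55.3 and 54.9 CPM with sgUTX_2 and 60.6 and 56.4 CPM with sgUTX_4 (log2 fold change -2.12 ± 0.06 SE, adjusted p = 3.61e-18). In both, every sgUTX library lay far below the lower control. BNIP3 has 39 named pseudogenes, whose counts came to 1.54% of its own.

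The collagen prolyl hydroxylase subunits and the remaining targets followed. P4HA1 stood at 339 and 336 CPM and at 57.9 and 53.6 CPM with sgUTX_2 and 64.7 and 54.7 CPM with sgUTX_4 (log2 fold change -2.55 ± 0.07 SE, adjusted p = 3.61e-18), and P4HA2 was lower on few counts, 67 in the controls and 35 in the sgUTX libraries (log2 fold change -2.33 ± 0.39 SE, adjusted p = 2.17e-05). ANKRD37 stood at 7.59 and 9.54 CPM and at 1.43 and 1.18 CPM with sgUTX_2 and 1.21 and 1.03 CPM with sgUTX_4 (log2 fold change -2.81 ± 0.24 SE, adjusted p = 6.23e-10), and shares 35.2% of its exonic bases with UFSP2. PPFIA4, KDM3A, a histone H3K9 demethylase, MXI1, an antagonist of MYC, and FAM162A were lower with log2 fold changes of -2.09, -1.69, -1.61 and -1.38, and each was called lower with either guide alone. INSIG2, a regulator of sterol synthesis, and EGLN1, the main oxygen sensor that marks HIF for degradation, were lower by less (-0.55 and -0.45). CA12, a carbonic anhydrase, was low throughout and lower in the sgUTX libraries (3.48 and 3.86 CPM against 1.23 and 1.27 CPM with sgUTX_2 and 1.16 and 0.486 CPM with sgUTX_4; log2 fold change -1.80). VEGFA, the vessel growth factor, was the exception, at 129 and 138 CPM and 111 and 121 CPM with sgUTX_2 and 124 and 128 CPM with sgUTX_4. All 4 lay below both controls, but by little, and the difference was not called (adjusted p = 0.127).

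HIF1A, the oxygen-regulated subunit, did not follow its targets. Its transcript stood at 59.8 and 54.3 CPM in the sgLuc DMSO libraries and at 53.8 and 49.8 CPM with sgUTX_2 and 59.6 and 58.2 CPM with sgUTX_4. The groups overlapped and the difference was not called (log2 fold change -0.05 ± 0.09 SE, adjusted p = 0.687), although with scaling by library size alone it turned to 0.23 (adjusted p = 0.0391). That scaling shifted the all-gene median from -0.01 to 0.26, near the HIF1A value. HIF1A protein, which is controlled by degradation, was not measured.

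**Figure D2:**
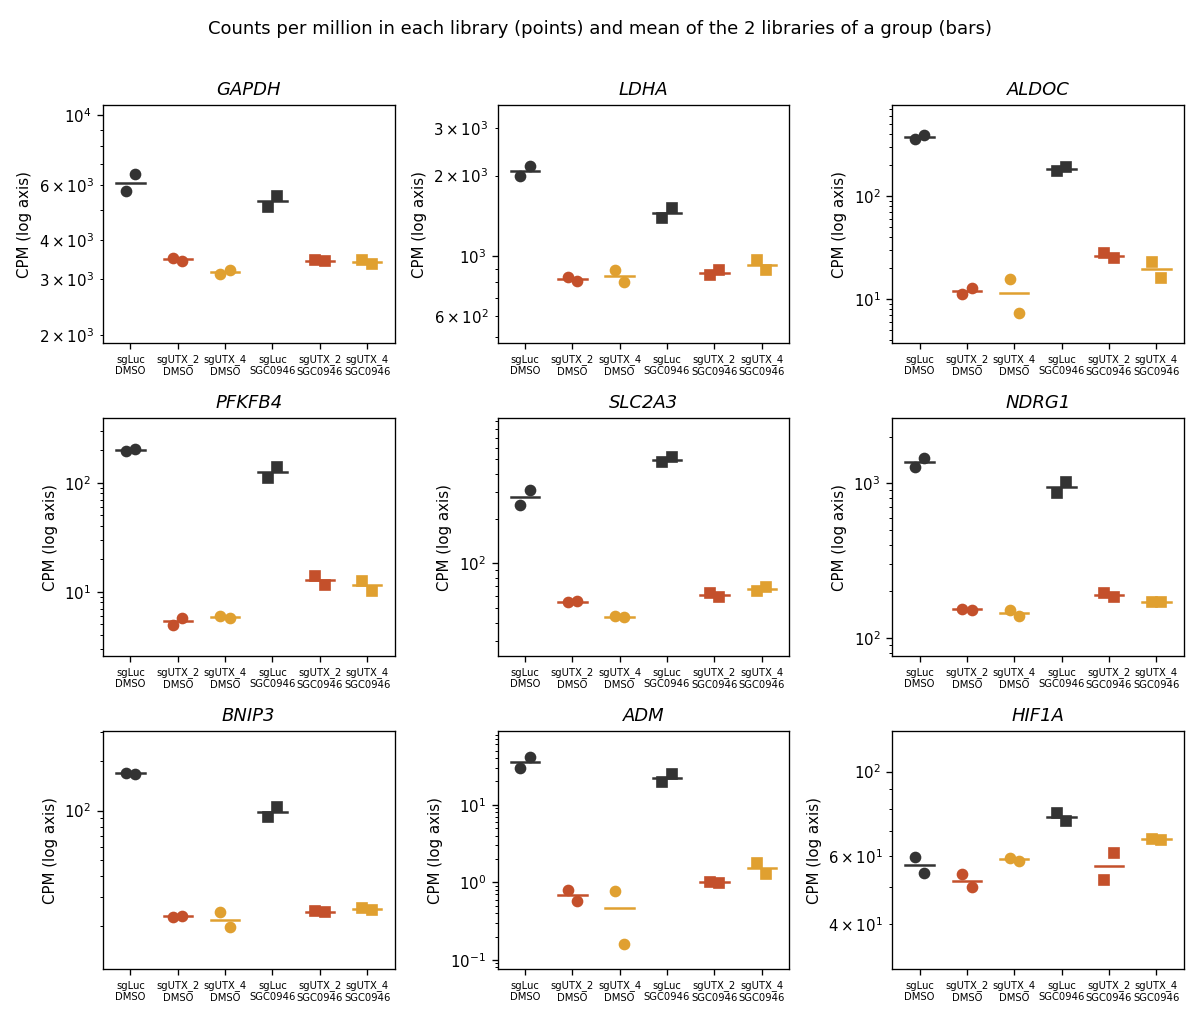
CPM of 9 members in each of the 12 libraries (points, log axis) with the mean of the 2 libraries of a group (bars). In the 8 panels other than HIF1A every sgUTX library lies below every sgLuc library of the same treatment, and SLC2A3 is the only one of the 9 besides HIF1A whose sgLuc level is higher with SGC0946 than with DMSO.

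With SGC0946 the same direction held, at a smaller size for many members. Of 40 members 32 were lower and 2 (PFKM and LDHB) were higher in sgUTX than in sgLuc libraries, where 29.3% of all genes were lower and 27.7% higher. At least 2-fold lower were 16 members, against 12.3% of all genes. The median log2 fold change was -0.63 over the enzymes and -1.20 over the HIF targets outside glycolysis, of which 12 of 15 were lower. By guide, 32 members were lower with sgUTX_2 and 34 with sgUTX_4, 32 with both. Of all genes, 29.1% were lower with sgUTX_2 and 29.0% with sgUTX_4. Of the 33 members lower in DMSO, 30 were also lower with SGC0946. Neither overlap was counted over all genes. The guides differed for 4 members (3.01% of all genes): HK3, LDHB and PKM were higher with sgUTX_4, and PDK1 was lower. With SGC0946, HIF1A was at 77.9 and 74.3 CPM in the sgLuc libraries and at 52.0 and 61.1 CPM with sgUTX_2 and 66.6 and 66.4 CPM with sgUTX_4 (log2 fold change -0.31 ± 0.09 SE, adjusted p = 0.00555). That call was lost without sgLuc SGC0946 replicate 1 (adjusted p = 0.0667), and with library size scaling (adjusted p = 0.237).

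ADM again had the largest gap, at 19.7 and 24.6 CPM with sgLuc and 1.02 and 0.986 CPM with sgUTX_2 and 1.76 and 1.28 CPM with sgUTX_4 (17.9-fold lower, adjusted p = 9.22e-12). PFKFB4 stood at 111 and 139 CPM and 14 and 11.5 CPM with sgUTX_2 and 12.6 and 10.2 CPM with sgUTX_4 (10.3-fold lower, adjusted p = 6.85e-17). ALDOC stood at 174 and 191 CPM and 27.6 and 25.1 CPM with sgUTX_2 and 22.9 and 15.8 CPM with sgUTX_4 (7.96-fold lower, adjusted p = 4.51e-06). In these 3 the groups did not overlap. Also lower with SGC0946 were ENO2, NDRG1, BNIP3 and P4HA1 (log2 fold changes -2.55, -2.38, -1.97 and -1.86). HK1, HK2 and LDHA had -0.81, -1.01 and -0.69, all called. CA12 and P4HA2, lower in DMSO, were not called here (adjusted p = 0.377 and 0.0523). SLC2A3 had a gap of -2.96 on the log2 scale, with 477 and 521 CPM in the sgLuc libraries and 63.3 and 59.8 CPM with sgUTX_2 and 65.1 and 69.2 CPM with sgUTX_4. HK3 was lower over both guides here, at 19.4 and 18.4 CPM with sgUTX_2 and 34.6 and 33.1 CPM with sgUTX_4 against 114 and 107 CPM (log2 fold change -2.08 ± 0.37 SE, adjusted p = 0.00119). PFKM was higher, at 26.4 and 25.8 CPM with sgUTX_2 and 26.3 and 26.7 CPM with sgUTX_4 against 17.2 and 15.1 CPM (log2 fold change 0.70 ± 0.11 SE, adjusted p = 9.03e-06). LDHB was higher too, by less with sgUTX_2 than with sgUTX_4 (log2 fold change 0.34 and 0.81). Its call over both guides was lost without either sgLuc SGC0946 library (log2 fold change 0.58 and 0.61). The same held without either sgUTX_4 SGC0946 library (adjusted p = 0.0826 and 0.0618), without sgUTX_4 DMSO replicate 2 (0.0517) and without the filter on low counts (0.0645).

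The second pair of comparisons asks what SGC0946 did within each kind of cell. In the sgLuc libraries 21 members were lower with SGC0946 than with DMSO and 9 were higher, where 24.2% of all genes were lower and 24.7% higher. The median log2 fold change was -0.31 over the enzymes and -0.44 over the HIF targets outside glycolysis. In the sgUTX libraries 19 members were higher and 4 lower, where 17.4% and 16.4% of all genes were, and the medians were 0.18 and 0.17. The 2 comparisons share no library in their means, although they share the estimate of the spread. Myeloid markers moved with the treatment. Their summed level was 1429 to 1536 CPM in the sgLuc and 1159 to 1558 CPM in the sgUTX DMSO libraries. With SGC0946 it was 11430 to 11680 and 4294 to 6248 CPM. The DMSO sums overlapped, but single markers differed: of 9, 5 were lower and 1 higher in sgUTX than in sgLuc libraries. Of all genes, 32.3% were lower and 28.7% higher there. With SGC0946, 7 of the 9 were lower and 1 higher, where 29.3% and 27.7% of all genes were. The part of these markers in these results was not tested. In bulk RNA, a change in the share of cells that express a gene and a change in RNA per cell cannot be told apart.

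A group of 8 members was lower with SGC0946 in sgLuc and higher in sgUTX libraries: ADM, ALDOC, ENO1, ENO2, GPI, NDRG1, PFKFB4 and PFKM. The share of all genes with such opposite calls was not counted, nor that of genes called the same way in both, so whether these member counts are unusual was not tested. In the fit by guide, NDRG1, PFKFB4 and PFKM rose with both guides. ALDOC, ENO1 and ENO2 were called with sgUTX_2 and not with sgUTX_4 (adjusted p = 0.172, 0.0853 and 0.0579), and ADM and GPI with sgUTX_4 and not with sgUTX_2 (adjusted p = 0.374 and 0.0785). Over both guides, ALDOC had log2 fold changes of -1.03 and 0.97, ENO2 of -1.09 and 0.85, PFKFB4 of -0.66 and 1.11, and ADM of -0.69 and 1.09. The 8 include the 5 members with the widest gaps in DMSO (ADM, PFKFB4, ALDOC, ENO2 and NDRG1). The gap and both responses use the same DMSO libraries, so a wide gap and opposite responses are not independent. For these 5 the sgUTX level with SGC0946 stayed far below the sgLuc level. ALDOC, for example, averaged 22.8 ± 5.09 CPM (SD, n = 4) against 183 ± 11.6 CPM (SD, n = 2). GPI, at 545 and 598 CPM with sgLuc and 387 and 361 CPM with sgUTX_2 and 406 and 378 CPM with sgUTX_4 in the SGC0946 libraries, went from 2.93-fold lower in DMSO to 1.49-fold lower. Of these 8, ADM and ALDOC lost the sgLuc call without 1 control library (sgLuc DMSO replicate 2 or sgLuc SGC0946 replicate 1; adjusted p = 0.0528 to 0.172). ADM and ENO1 lost the sgUTX call without sgUTX_4 SGC0946 replicate 1 (adjusted p = 0.0552 and 0.0681), and ENO1 also without sgUTX_2 DMSO replicate 1 or sgUTX_4 DMSO replicate 2.

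A further 6 members were higher with SGC0946 in both kinds of cell: BNIP3L, HK1, HK3, PGAM1, PKM and SLC2A3. By guide, SLC2A3 was not called with sgUTX_2 (adjusted p = 0.202), and the other 5 were called with both. The sgLuc call for PKM (adjusted p = 0.0484) was lost without any 1 of the 4 sgLuc libraries (0.117 to 0.168), with the replicate block (0.0574) and without the filter on low counts (0.098). HK3 had the largest of these rises, from 19.3 and 17.5 to 114 and 107 CPM in sgLuc libraries (log2 fold change 2.58 ± 0.48 SE, adjusted p = 0.00211) and, in sgUTX libraries, to 19.4 and 18.4 CPM with sgUTX_2 and 34.6 and 33.1 CPM with sgUTX_4 (log2 fold change 1.36 ± 0.36 SE, adjusted p = 0.0203). The sgUTX call for HK3 was lost when any of the sgUTX_2 DMSO or sgUTX_4 SGC0946 libraries was left out. SLC2A3 rose from 248 and 314 to 477 and 521 CPM with sgLuc (log2 fold change 0.83 ± 0.13 SE, adjusted p = 9.21e-05). BNIP3L rose from 245 and 249 to 361 and 376 CPM with sgLuc and to 89.2 and 94.9 CPM with sgUTX_2 and 99.3 and 90.7 CPM with sgUTX_4 (log2 fold changes 0.58 and 0.72), whereas its relative BNIP3 was lower in sgLuc libraries with SGC0946, at 91.0 and 105 CPM (log2 fold change -0.78 ± 0.09 SE, adjusted p = 9.08e-08). P4HA1, PDK1, PFKP and VEGFA were lower in both. By guide, P4HA1 and VEGFA were lower with sgUTX_4 and not called with sgUTX_2 (adjusted p = 0.633 and 0.422). PFKP lost its sgLuc call without sgLuc DMSO replicate 1 (adjusted p = 0.057) or sgLuc SGC0946 replicate 1 (0.0582). P4HA1 had 175 and 197 CPM with sgLuc and SGC0946 (log2 fold change -0.86). The call for its small sgUTX difference (-0.16, adjusted p = 0.0491) was lost with DESeq2 (0.0506), library size scaling (0.0574) and the replicate block (0.0553). It was also lost with scaling without ribosomal protein genes (0.0512) and in most fits that left out 1 library. HIF1A itself rose in sgLuc libraries, from 59.8 and 54.3 to 77.9 and 74.3 CPM (log2 fold change 0.41 ± 0.11 SE, adjusted p = 0.0027).

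CA12 had the largest rise in sgUTX libraries. It went from 1.23 and 1.27 CPM with sgUTX_2 and 1.16 and 0.486 CPM with sgUTX_4 in DMSO to 4.72 and 5.01 CPM with sgUTX_2 and 8.05 and 4.86 CPM with sgUTX_4 with SGC0946 (log2 fold change 2.42 ± 0.24 SE, adjusted p = 4.36e-08), while the sgLuc libraries held 3.48 and 3.86 CPM and 4.22 and 5.10 CPM (adjusted p = 0.366). The 4 sgUTX SGC0946 libraries lay above all 4 sgUTX DMSO libraries. P4HA2 had a log2 fold change of 1.02 there (adjusted p = 0.0323), on 35 and 76 counts in all, and 4 fits that left out 1 library lost the call. It was not called with sgUTX_4 alone (adjusted p = 0.48). PPFIA4 rose in the sgUTX libraries too, from 1.52 and 3.02 CPM with sgUTX_2 and 2.92 and 2.54 CPM with sgUTX_4 to 5.30 and 4.60 CPM with sgUTX_2 and 3.91 and 3.68 CPM with sgUTX_4 (log2 fold change 0.81 ± 0.19 SE, adjusted p = 0.00219), and was not called with sgUTX_4 alone (adjusted p = 0.192).

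**Figure D3:**
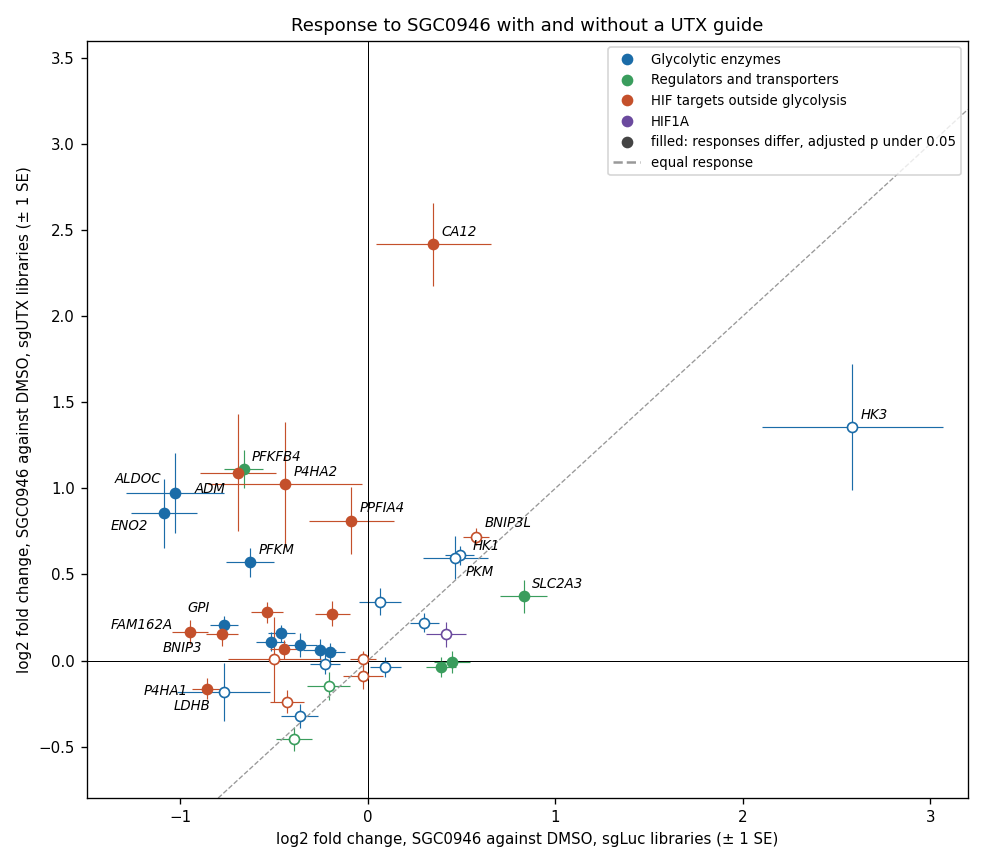
Log2 fold change of SGC0946 against DMSO in sgLuc libraries (x axis) and in sgUTX libraries (y axis) for the 40 tested members, with bars of 1 SE. Filled symbols are the 23 members whose 2 responses differed at an adjusted p under 0.05, and 20 of them lie above the dashed line of equal response.

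The difference of the responses, which is the same quantity as the change of the sgUTX to sgLuc gap between DMSO and SGC0946, was tested directly. It was above 0 for 20 members and below 0 for 3, where 18.3% of all genes were above and 16.5% below. Of the enzymes 9 were above and 0 below, with a median difference of 0.30 on the log2 scale, and of the HIF targets outside glycolysis 10 were above and 0 below, with a median of 0.69. The median over all genes was 0.02. The largest differences were those of CA12 (2.07, adjusted p = 0.000299), ALDOC (2.001, adjusted p = 0.00231), ENO2 (1.94, adjusted p = 5.82e-06), ADM (1.78, adjusted p = 0.00169) and PFKFB4 (1.77, adjusted p = 2.25e-08). FAM162A, at 105 and 115 CPM with sgLuc in DMSO and 55.4 and 58.7 CPM with SGC0946, had a difference of 1.11, and SGC0946 against DMSO was not called in its sgUTX libraries (47.3 and 38.1 CPM with sgUTX_2 and 44.5 and 39.8 CPM with sgUTX_4 in DMSO, 43.7 and 48.4 CPM with sgUTX_2 and 49.0 and 49.3 CPM with sgUTX_4 with SGC0946). Below 0 were SLC2A3, PFKFB3 and SLC16A3 (-0.46, -0.46 and -0.42). HK3 had a difference of -1.23 that was not called in this fit (adjusted p = 0.159) and was called with a mean for each guide (-1.17, adjusted p = 7.79e-09). The calls for P4HA2, GAPDH, TPI1 and SLC2A3 were lost in several fits that left out 1 library, and those for PFKFB3, KDM3A and PPFIA4 without 1 of the sgLuc libraries. Both GAPDH and P4HA2 also lost the call with library size scaling, DESeq2, no filter on low counts and the replicate block. With another scaling (RLE) the GAPDH call was lost, and with library size scaling the TPI1 call.

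Because enzymes with the same reaction are counted in the same library, their shares need no scaling between libraries. PFKFB4 made up 77.8 and 81.7% of the exon-length-scaled PFKFB3 and PFKFB4 reads in the sgLuc DMSO libraries, 6.23 and 8.08% with sgUTX_2 and 7.41 and 7.02% with sgUTX_4. With SGC0946 it made up 60.8 and 67.8% with sgLuc, 17.0 and 13.9% with sgUTX_2 and 14.5 and 12% with sgUTX_4. So the dominant member of the pair was PFKFB4 in all sgLuc libraries and PFKFB3 in all sgUTX libraries. ALDOC made up 90.6 and 90.3% of the aldolase reads in the sgLuc DMSO libraries, 43.9 and 45.0% with sgUTX_2 and 49.5 and 31.4% with sgUTX_4, subject to the limit on ALDOA above. ENO2 was a minor enolase throughout, at 1.95 and 2.07% with sgLuc, 0.195 and 0.209% with sgUTX_2 and 0.190 and 0.128% with sgUTX_4 in DMSO. LDHB took a larger share of lactate dehydrogenase reads, with 4.76 and 3.43% with sgLuc, 8.46 and 8.40% with sgUTX_2 and 11.1 and 10.6% with sgUTX_4. The level of LDHB itself was not called in DMSO, while LDHA was lower.

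With 2 control libraries an exact permutation test of sgUTX against sgLuc cannot go below p = 0.0667, so these shares are given as values only. Within the sgUTX libraries SGC0946 was compared with DMSO, 4 against 4, for 10 shares (exact two-sided permutation test, smallest possible p = 0.0286, Benjamini-Hochberg over the 10). The share of PFKFB4 rose by 7.17 percentage points and that of ENO2 by 0.112 points. The share of PFKM among phosphofructokinases rose by 2.68 points and that of PFKL by 3.64 points, while that of PFKP fell by 6.31 points. HK1 gained 5.53 points among hexokinases, and HK2 fell by 14.1 points. Each of these 7 had an adjusted p of 0.0408 by the exact test, with no overlap of the 4 and 4 libraries. Shares within a family are tied to each other, so these 7 are not independent. By the edgeR F-test the levels of HK2 and PFKL were not called here (log2 fold changes -0.04 and -0.02, adjusted p = 0.68 and 0.844). The shares of ALDOC, HK3 and LDHB did not pass (exact adjusted p = 0.0714, 0.0952 and 0.143). That test does not take account of the guide. Within sgUTX_2 the HK3 share went from 5.27 and 4.65% to 13.0 and 12.6%, and within sgUTX_4 from 13.3 and 9.89% to 21.6 and 20.3%, with no overlap inside either guide. The LDHB share likewise went from 8.46 and 8.40% to 7.23 and 6.89% with sgUTX_2 and from 11.1 and 10.6% to 8.32 and 9.64% with sgUTX_4. In sgLuc libraries HK3 went from 8.61 and 7.29% of the hexokinase reads in DMSO to 32.5 and 29.4% with SGC0946.

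**Figure D4:**
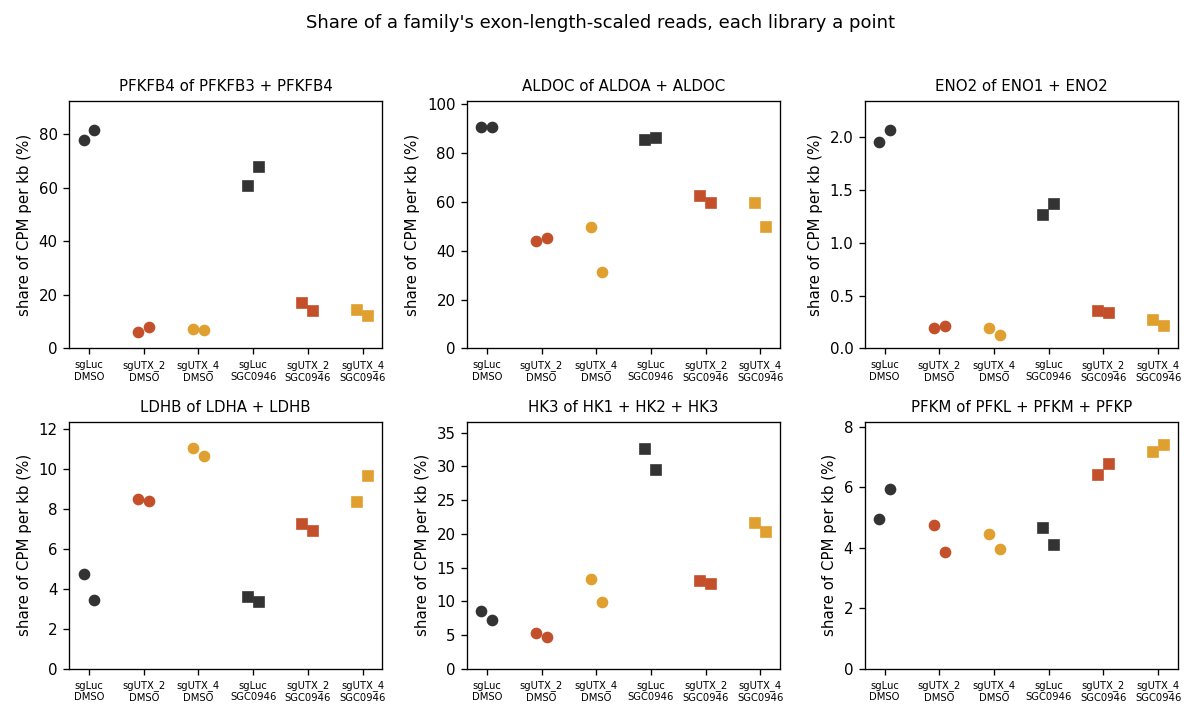
Share of one isoform in the exon-length-scaled reads of its family, in percent, for each of the 12 libraries. The PFKFB4, ALDOC and ENO2 shares are lower in all sgUTX than in all sgLuc libraries, the LDHB share is higher, and the PFKM share is highest with sgUTX and SGC0946.

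Genes around the members were read from lists of the same pathways, against the 32.3% of all genes that were lower and the 28.7% that were higher in DMSO, and the 29.3% and 27.7% with SGC0946. Of 13 measured other genes of the HIF pathway (subunits, hydroxylases, the VHL ligase and coactivators), 3 fell and 6 rose between the sgLuc and the sgUTX DMSO libraries. With SGC0946, 5 were lower and the other 8 were not called. EPAS1, the HIF2 alpha subunit, was near the floor (1.87 and 0.757 CPM against 0.393 and 0.219 CPM with sgUTX_2 and 0.221 and 0.540 CPM with sgUTX_4) and ARNT, the partner of both alpha subunits, was lower with 132 and 143 CPM against 102 and 94.0 CPM with sgUTX_2 and 92.8 and 96.7 CPM with sgUTX_4 (log2 fold change -0.51). ARNT2 and EGLN2 were the largest rises in DMSO, both at low levels, and were not called with SGC0946 (adjusted p = 0.758 and 0.692). Of 17 measured further genes known to respond to low oxygen, 11 fell and 3 rose in DMSO, and the median was -1.15. With SGC0946, 12 were lower and 1 higher, and the median was -0.79. EFNA3, an ephrin, and HMOX1, haem oxygenase, had the largest falls in DMSO (log2 fold change -3.26 and -2.58), and STC2 and TFRC the largest rises (5.003 and 1.03), with STC2 at under 2 CPM everywhere. EFNA3 and TFRC were not called with SGC0946 (adjusted p = 0.151 and 0.0602).

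The neighbouring pathways of sugar metabolism did not move as one. Of 8 genes of the pentose phosphate pathway 6 were lower and 2 higher in DMSO, and 5 and 2 with SGC0946. TKT, the transketolase, stood at 1801 and 1892 CPM with sgLuc and 835 and 808 CPM with sgUTX_2 and 792 and 773 CPM with sgUTX_4 (2.30-fold lower), H6PD was 2.83-fold lower, and RPIA and RPE were higher (0.69 and 0.37). Of 11 genes of glycogen metabolism 6 were lower in DMSO and 7 with SGC0946, led in DMSO by the branching enzyme GBE1 at 295 and 305 CPM against 80.1 and 78.7 CPM with sgUTX_2 and 97.9 and 82.8 CPM with sgUTX_4 (3.54-fold lower) and the phosphatase subunit PPP1R3B (-1.73). Of 27 genes of pyruvate entry and the TCA cycle 9 fell and 5 rose, none by 2-fold, and the median was -0.02, so the share that fell was near that of all genes. With SGC0946, 6 were lower and 12 higher. IDH3A and MPC1, a subunit of the mitochondrial pyruvate carrier, were the largest rises (0.87 and 0.77) and PDK2 and IDH3G the largest falls (-0.72 and -0.71). Of 7 measured other genes of glycolysis and its carriers 3 were lower and 2 higher in DMSO, and 2 and 1 with SGC0946. SLC16A1, a lactate carrier of the same family as SLC16A3, rose from 54.3 and 51.1 CPM to 108 and 107 CPM with sgUTX_2 and 103 and 107 CPM with sgUTX_4 (log2 fold change 1.01 ± 0.07 SE, adjusted p = 2.72e-11), and was higher with SGC0946 too (log2 fold change 1.13 ± 0.07 SE, adjusted p = 6.84e-12).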

How the data were processed

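RNA of 12 OCI-AML2 libraries was sequenced in pairs from total RNA, per the labels' protocols. The authors deposited raw read counts per gene for 58735 Ensembl identifiers, not normalized. STAR 2.5.1b and hg19 are named per the submitters' processing notes. Yet the identifiers match GENCODE 29, made for GRCh38, exactly, which leaves the build uncertain; positions here are from GENCODE 29 or RefSeq. How reads were assigned to genes, and whether by strand, is not given in the sources used here, and overlapping genes may share reads.

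Groups came from the labels. After filterByExpr, 15060 genes were tested by two-sided quasi-likelihood F-tests (edgeR 4.0.16, R 4.3.3, robust, scaled by TMM), and genes were called at a Benjamini-Hochberg adjusted p under 0.05. All 12 libraries entered 1 fit of 4 groups in which both guides stand for sgUTX (residual degrees of freedom 8, common dispersion as a coefficient of variation 0.0775). A fit of 6 groups gave single guides. CPM are scaled by TMM factors; the level per kb divides by the union of exons. Libraries of a group differed by more than sampling (chi-square per gene 2.85 to 6.29), so all 12 were kept. Scripts were tested on simulated data.

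The members and lists were chosen with earlier results of these data known, so lists have counts and medians and no test. Values per library are given for the members with the largest called differences (up to 8 in each direction per comparison), the isoform partners and HIF1A; of every other list at most the 2 largest called changes in each direction are named, and 1 such result is not reported here. Alternatives were other scalings, DESeq2 1.42.0, no filter, the 6-group fit, a replicate block and each library left out. Promoters came from RefSeq for 37 of 41 members; NDRG1, BNIP3L, VEGFA and SLC2A3 had no entry.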

Additional observations from a re-analysis of the deposited data

Results flagged for a closer look

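For 23 members the response to SGC0946 differed between sgUTX and sgLuc libraries by the interaction test (edgeR, adjusted over all genes). Values are sgUTX minus sgLuc on the log2 scale. The calls for P4HA2, GAPDH, TPI1, SLC2A3, PFKFB3, KDM3A and PPFIA4 were lost in some other fits, as given above. The members called are listed by role. Among the enzymes the 23 included GPI (0.97), PFKM (1.20), ALDOA (0.45), ALDOC (2.001), TPI1 (0.32), GAPDH (0.25), ENO1 (0.62), ENO2 (1.94) and LDHA (0.63). Among the regulators and transporters PFKFB4 stood at 1.77, and PFKFB3 (-0.46), SLC2A3 (-0.46) and SLC16A3 (-0.42) had the opposite sign. Among the HIF targets outside glycolysis these were NDRG1 (0.82), BNIP3 (0.93), FAM162A (1.11), KDM3A (0.46), MXI1 (0.51), P4HA1 (0.69), P4HA2 (1.47), PPFIA4 (0.90), ADM (1.78) and CA12 (2.07).

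A library far from the other 3 of its group was found in 3 of 80 groups of 4 checked, where chance gives about 1 in 20. FAM162A was at 43.7 CPM in sgUTX_2 SGC0946 replicate 1, below the other 3. CA12 was at 0.486 CPM in sgUTX_4 DMSO replicate 2, below the others, and at 8.05 CPM in sgUTX_4 SGC0946 replicate 1, above the others.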

How the results depend on the processing

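The count of lower members in sgUTX DMSO libraries lay between 32 and 34 with any 1 library left out, and the matching SGC0946 count between 30 and 32. The settings moved other values as follows. With scaling by library size alone, the members higher numbered 2 in DMSO and 5 with SGC0946, the medians of enzymes and HIF targets were -0.63 and -1.82 in DMSO, -0.44 and -1.01 with SGC0946, -0.22 and -0.35 for SGC0946 in sgLuc libraries, and 0.21 and 0.61 for the difference of responses. That scaling moved the share of higher genes among all called from 47.1% to 66.7% in DMSO, from 48.6% to 65.0% with SGC0946, from 50.6% to 60.9% for SGC0946 in sgLuc libraries and from 52.6% to 40.6% for the difference; HIF1A in DMSO turned from -0.05 to 0.23. Without the filter on low counts the DMSO medians were -0.83 and -2.02, 1 member was higher with SGC0946, and the enzyme median of the difference was 0.24. With 6 groups 5 members had a difference below 0. The PFKL share, taken from counts not divided by length, rose by 2.79 points (exact adjusted p = 0.0714).

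With 1 library left out, the HIF target median lay between -2.15 and -1.83 in DMSO, between -1.27 and -1.12 with SGC0946 and between -0.53 and -0.33 for SGC0946 in sgLuc libraries. Members higher with SGC0946 numbered 1 to 2, members lower with SGC0946 in sgLuc libraries 14 to 21, and the medians of the difference lay between 0.26 and 0.37 for the enzymes and between 0.61 and 0.78 for the HIF targets. A replicate that stands alone in its group was assumed to vary like the others. Libraries with the same replicate number showed no clear shared deviation between groups (correlations of their deviations between -0.111 and 0.0731). Whether such libraries were handled together is not shown by these values. With the replicate block 33 members were lower and 1 higher in DMSO, 33 lower and 2 higher with SGC0946, and 18 were above and 3 below 0 for the difference of responses. Depth limits EGLN3, P4HA2 and, in sgUTX libraries, ADM, whose values rest on few counts.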

Other observations

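Some genes of the neighbouring lists answered SGC0946 in one kind of cell more than in the other. HILPDA, a lipid droplet gene induced by low oxygen, stood at 101 and 117 CPM in the sgLuc DMSO libraries and at 20.9 and 26.6 CPM with SGC0946, close to the sgUTX levels in DMSO (20.04 and 18.5 CPM with sgUTX_2 and 21.8 and 19.9 CPM with sgUTX_4) and with SGC0946 (20.4 and 18.9 CPM with sgUTX_2 and 20.3 and 17.8 CPM with sgUTX_4). Its response differed by 2.15 on the log2 scale (adjusted p = 1.44e-10). EFNA3 had a like pattern, with 7.84 and 7.80 CPM and 2.17 and 1.66 CPM in sgLuc libraries against 0.786 and 0.307 CPM with sgUTX_2 and 1.10 and 1.13 CPM with sgUTX_4 and, with SGC0946, 1.16 and 1.68 CPM with sgUTX_2 and 1.19 and 1.02 CPM with sgUTX_4 (difference 2.67, adjusted p = 0.000111). The hexose carrier SLC2A6 went the other way: it rose from 5.10 and 4.16 to 45.8 and 44.6 CPM with sgLuc, and in sgUTX libraries from 3.24 and 2.59 CPM with sgUTX_2 and 3.53 and 3.57 CPM with sgUTX_4 to 8.91 and 8.01 CPM with sgUTX_2 and 13.1 and 11.0 CPM with sgUTX_4 (difference -1.61, adjusted p = 4.21e-05). HMOX1 rose from 1.25 and 2.65 to 9.30 and 12.03 CPM with sgLuc, while the sgUTX libraries stayed under 1 CPM in both treatments (difference -2.80, adjusted p = 0.0019).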
